A study of Mus musculus with 16 samples.

Results

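The cells described here are CD8 T cells of mouse B16 melanomas that carried transcripts of Gzmb (granzyme B) or Prf1 (perforin) and none of the division genes Mki67 and Top2a, called effector cells from here on. They were 3054 of the 99357 cell barcodes that passed the cell filter (3.07%, 95% Wilson interval 2.97 to 3.18, counting error only). They were chosen by their own unique molecular identifier counts (UMIs, each standing for 1 captured mRNA molecule). A member had at least 2 UMIs of Cd3d, Cd3e, Cd3g and Trac together, at least 1 of Cd8a or Cd8b1, at least 2 of Gzmb and Prf1 together, none of Cd4, Foxp3, Ncr1, Mki67 or Top2a, and at most 5 of the macrophage genes C1qa, C1qb and C1qc. The filter asked for 200 genes and at most 10% mitochondrial UMIs. The 16 gate genes are therefore described without a test and were left out of every count of called genes.

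C57BL/6J mice carried subcutaneous tumours grown from 1000000 Bro4.1 B16 cells, either control or lacking B2m, and received 100 µg of an agonistic antibody to CD40 or a rat IgG2a isotype control intraperitoneally on days 6, 9 and 12, with harvest on day 14. In the labels the missing B2m is a mouse genotype, but the series' design places it in the melanoma line; that second reading is used here. CD45-positive cells were enriched on magnetic beads, each mouse's cells were stained with a hashtag antibody, and the mice of a group were pooled for 10x 3' sequencing in 8 lanes, 2 for each of the 4 groups. Groups are named by tumour and antibody, such as control CD40 or B2m-null isotype. The 2 control CD40 lanes held the same 2 mice of 1 pool. In control tumours the antibody, and under CD40 the tumour genotype, therefore cannot be told apart from that pool. The hashtags separated 5 control isotype and 2 control CD40 mice, 5 B2m-null mice given isotype and 4 given CD40 antibody. The labels name 3 hashtags for every lane but the files hold 3 in 2 lanes and 2 in the other 6, so a mouse here is a hashtag listed in a lane's file, and these numbers of mice rest on that.

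Cytotoxic CD8 T cells recognise peptides on MHC class I, whose light chain is B2m, and kill by releasing perforin, which opens the target membrane, and granzymes, proteases that start cell death inside the target. Tumour cells without B2m present no conventional class I peptides of their own. Agonistic antibodies to CD40 act on dendritic cells, macrophages and B cells, the cells that prime and restimulate T cells.

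The lanes held 10656 to 15652 filtered cells with median depths of 1792 to 5103 UMIs, and no pair of lanes shared more than 92 cell barcodes. The members had a median of 2799 UMIs, against 1524 for non-cycling CD8 T cells with no UMI of Gzmb or Prf1 and 5835 for cycling CD8 T cells with Gzmb or Prf1. Of the members, 5.14% carried 2 or more hashtags and 6.45% none; the share without a hashtag was 62.5% in the first B2m-null isotype lane and 32.8% in the first B2m-null CD40 lane. Only 2700 members could be given to a mouse, and only 1 B2m-null isotype mouse had at least 10. Comparisons that involve the B2m-null isotype group were therefore fitted over pools, and the other comparisons over mice.

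Within the gate, 48.8% of members carried both Gzmb and Prf1, 47.4% Gzmb only and 3.80% Prf1 only. The share with both was 65.7% in control isotype tumours, 47.6% in control CD40, 48.1% in B2m-null isotype and 44.3% in B2m-null CD40 tumours. Members with 10 or more UMIs of the 2 genes made up 29.4%, 11.03%, 21.1% and 13.6% of the same groups in that order. Members with exactly 2 UMIs made up 17.9%, 39.2%, 25.6% and 31.5%. At the threshold, the 1004 members with exactly 2 UMIs had a median of 2177 UMIs in all, and the 1931 non-cycling CD8 T cells with 1 UMI, just outside, a median of 1781. The part of depth and of free RNA in the droplets in membership was not tested. Of 26951 macrophages (10 or more UMIs of the 3 C1q genes, with lane medians of 4558 to 9878 UMIs), 0.891% held 2 or more UMIs of Gzmb and Prf1.

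Of the 5 markers that gave these cells their label, Cd8a, Gzmb and Prf1 are gate genes, so that their levels are fixed by selection; Ifng and Pdcd1 are not. Ifng, the effector cytokine interferon-gamma, had a UMI in 42.7% of members, 19.3% of the Gzmb- and Prf1-negative CD8 T cells and 0.801% of macrophages. Cells of these classes with at least 2000 UMIs were also thinned to 2000, with the class kept from full depth. These shares were then 35.1% of 2178 cells, 19.6% of 1519 and 0.270% of 25586. Pdcd1, which encodes the inhibitory receptor PD-1, had a UMI in 28.9% of members (23.0% thinned), 12.7% of negative cells (12.97%) and 0.312% of macrophages (0.0782%). Transcripts of other lineages were present too: 26.9% of members carried at least 1 C1q UMI.

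The share of effector cells among all filtered cells was higher after CD40 treatment in both kinds of tumour, but no difference in share passed the threshold after adjustment for the 8 share tests. In control isotype tumours the effector cells were 3.03%, 0.978%, 1.20%, 1.52% and 1.73% of the filtered cells of each mouse. In control CD40 tumours they were 6.23% and 4.99%, above every control isotype mouse. The difference of the means was 3.92 percentage points (exact permutation test, 2 against 5 mice, two-sided p = 0.0476, the smallest this design can give, and 0.0952 after Benjamini-Hochberg adjustment).

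B2m-null isotype tumours had the lowest mean share, with 0.330%, 0%, 0.676%, 1.23% and 0.128% (the 0% stands for 0 of 564 cells, which allows a share of up to 0.532%). In B2m-null CD40 tumours the shares were 0.934%, 3.13%, 8.58% and 7.21%, so that 3 of the 4 mice lay above every B2m-null isotype mouse and 1 lay within their range. The difference was 4.49 percentage points (exact permutation test, n = 4 and 5, p = 0.0159, adjusted 0.0635). That test takes mice as independent, although the first 2 of these B2m-null CD40 mice shared 1 pool and the last 2 the other. With a pool, lane or mouse left out the difference ranged from 1.56 to 7.42 percentage points. Under isotype, B2m-null minus control tumours was -1.22 percentage points (exact permutation test, n = 5 and 5, p = 0.0238, adjusted 0.0635), with overlapping mice. Under CD40 the genotypes differed by -0.646 percentage points (exact permutation test, n = 4 and 2, p = 0.867, adjusted 0.867; the smallest p possible there is 0.0667), and the sign of this difference turned to 0.326 without the first control CD40 lane, 2.28 without the first B2m-null CD40 pool and 0.697 without its first mouse.

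**Figure D1:**
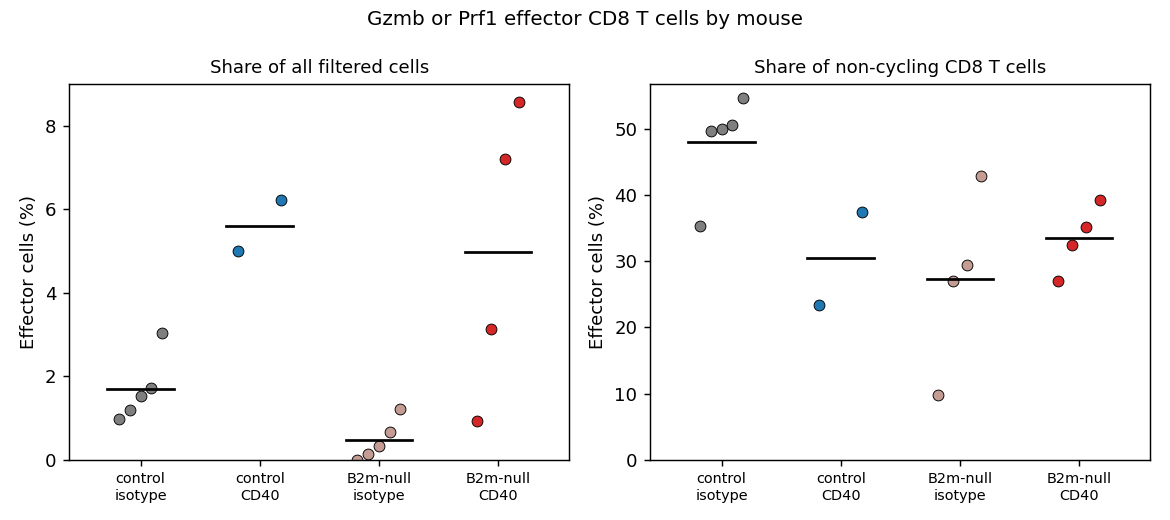
Effector cells as a percentage of all filtered cells (left) and of non-cycling CD8 T cells (right), 1 point per mouse, with a bar at the group mean. On the left both control CD40 mice lie above the 5 control isotype mice; on the right the control isotype mice reach 54.5% and the lowest B2m-null isotype mouse is at 9.80%.

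Among non-cycling CD8 T cells alone, effector cells were the largest share in control isotype tumours, where the mice had 54.5%, 35.2%, 50.5%, 49.7% and 50%. The 2 control CD40 mice had 37.4% and 23.4%, with the second below every control isotype mouse and the first within their range. The difference of -17.6 percentage points did not pass the threshold (exact permutation test, n = 2 and 5, p = 0.0952, adjusted 0.152). With a pool, lane or mouse left out it ranged from -24.6 to -10.6 percentage points. The 4 B2m-null isotype mice with at least 10 such cells had 26.9% (7 of 26 cells), 42.9% (6 of 14), 29.4% (69 of 235) and 9.80% (5 of 51). Their mean differed from control isotype by -20.8 percentage points (exact permutation test, n = 4 and 5, p = 0.0238, adjusted 0.0635). Their values overlapped those of control isotype mice, and with a pool, lane or mouse left out this difference ranged from -28.4 to -13.1 percentage points.

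B2m-null CD40 mice had 27.1%, 32.4%, 35.1% and 39.2%, within the range of the B2m-null isotype mice (difference 6.21 percentage points, exact permutation test, n = 4 and 4, p = 0.486, adjusted 0.648). Against control CD40 they differed by 3.05 percentage points (exact permutation test, n = 4 and 2, p = 0.667, adjusted 0.762). Cycling cells were 67.0% of CD8 T cells with 2 or more Gzmb and Prf1 UMIs in control isotype tumours and 35.1% in control CD40. They were 63.4% in B2m-null isotype and 42.2% in B2m-null CD40 tumours. By lane they were 69.1% and 63.5% in control isotype and 34.8% and 35.4% in control CD40. The B2m-null isotype lanes had 60% and 65.0%, and the B2m-null CD40 lanes 60.6% and 33.5%. This split was not tested. Cells of at least 2000 UMIs were also thinned to 2000 and gated again, with the others left out. The mean effector shares of non-cycling CD8 T cells were then 57.8% in control isotype and 37.6% in control CD40 mice. They were 31.7% in B2m-null isotype mice, 2 of which had only 12 and 11 such cells, and 35.5% in B2m-null CD40 mice. Left out were 7851 of 26308 filtered control isotype cells and 13177 of 26490 control CD40 cells. In B2m-null tumours 7738 of 23925 were left out under isotype and 5990 of 22634 under CD40.

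Effector cells were compared with non-cycling CD8 T cells of the same mice that had no UMI of Gzmb or Prf1. Effector cells carried more of another granzyme, Gzma, of 5 inhibitory receptor and exhaustion genes and of 14 glycolysis and hypoxia genes. They carried less of every stem-like gene that could be measured. Both classes are defined by Gzmb and Prf1 in the same cells, so the fit across 12 mice is given as a description. edgeR's quasi-likelihood test placed 348 of 4853 genes higher (7.17%) and 408 lower (8.41%) at an adjusted p under 0.05.

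Gzma, which encodes granzyme A, had a mean of 679 counts per 1000000 UMIs (CPM) in effector cells and 81.9 CPM in negative cells. In summed counts a difference in the number of cells with a transcript and one in the amount per cell cannot be told apart. Gzma was higher in 12 of 12 mice, by 2.78 ± 0.16 on the log2 scale (here and below, fitted change ± its standard error). Havcr2, encoding the inhibitory receptor TIM-3, differed by 1.93 ± 0.14, and Tnfrsf9, encoding the costimulatory receptor 4-1BB, by 1.99 ± 0.14, each higher in 12 of 12 mice. The chemokine genes Ccl3 and Ccl4 were higher by 1.53 ± 0.21 in 9 of 12 mice and by 1.24 ± 0.18 in 11 of 12. Ifng was higher by 1.16 and Pdcd1 by 0.64.

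On the other side, Tcf7, which encodes the transcription factor TCF1 of naive and stem-like T cells, had a mean of 50.5 CPM in effector cells and 259 CPM in negative cells, and was lower in all 12 mice (-1.88 ± 0.21). Il7r, the receptor for the survival cytokine IL-7 (-1.13 ± 0.15), and Klf2, a transcription factor of quiescent T cells (-0.97 ± 0.13), were also lower in all 12. All 11 measured stem-like and naive genes were lower, with a median of -0.81 beside -0.02 over all 4853 genes. Of 13 measured cytolytic granule genes 6 were higher and 1 (Lamp1) lower. In the list of inhibitory receptor and exhaustion genes 5 of 10 were higher (Pdcd1, Cd38, Lag3, Havcr2 and Entpd1). Of 11 costimulatory receptor genes 2 were higher (Tnfrsf9 and Tnfrsf4), 1 was lower (Cd28) and 8 were not called (median 0.14).

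**Figure D2:**
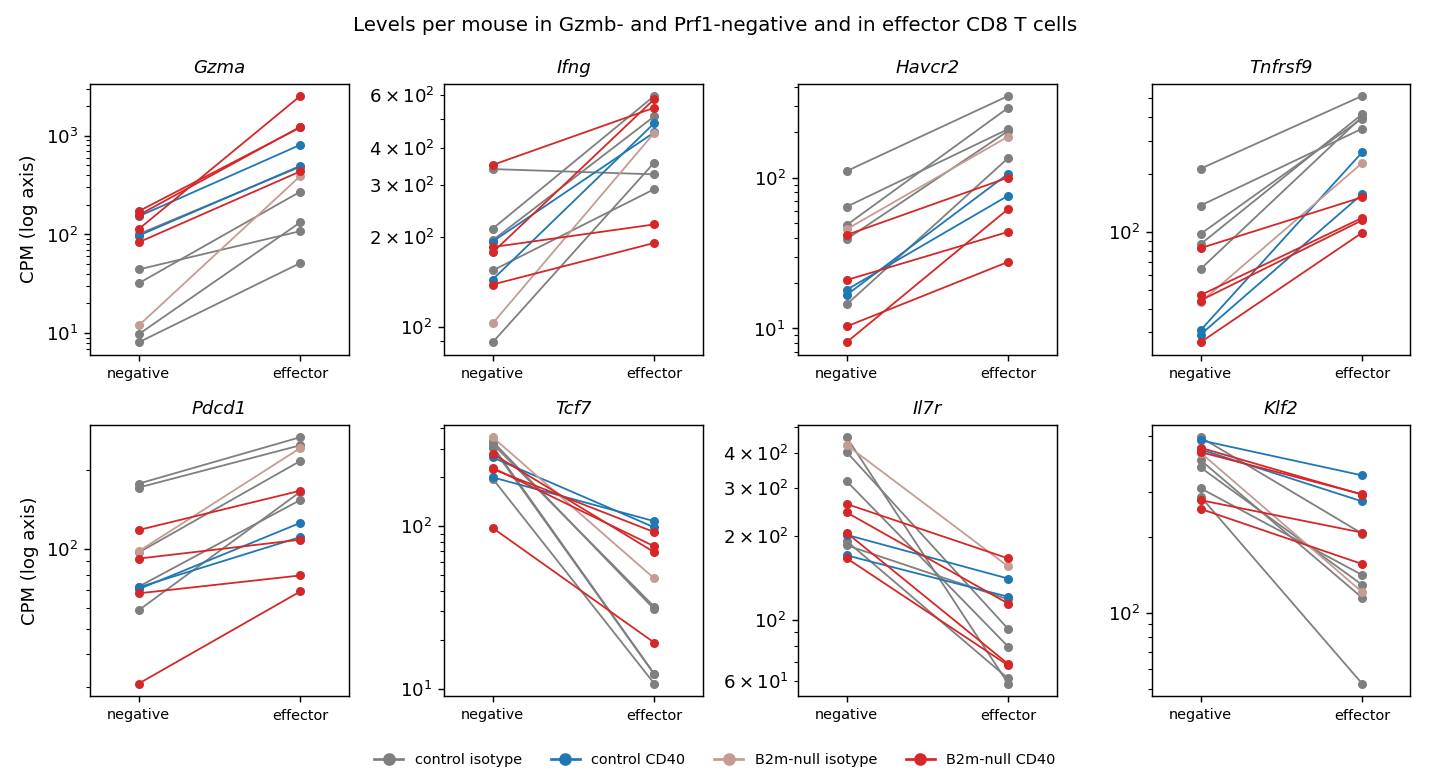
Levels in CPM on a log axis of 8 genes, 1 line per mouse joining its Gzmb- and Prf1-negative cells (left) to its effector cells (right), coloured by group. The lines for Gzma, Havcr2 and Tnfrsf9 rise and those for Tcf7, Il7r and Klf2 fall in all 12 mice.

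Glycolysis and hypoxia genes were higher for 14 of 19 measured members and lower for none (median 0.54), among them the glucose transporter gene Slc2a3 (0.81) and Aldoa (0.67), encoding a glycolytic aldolase. Nuclear genes of the respiratory chain were higher for 11 of 26 (median 0.18), and S100, annexin and cytoskeletal genes for 11 of 19 (median 0.26). Although cells with Mki67 or Top2a had been gated out, 9 of 16 measured cell cycle and replication genes were higher, such as Stmn1 (1.10) and Cks1b (0.98). The immediate early genes Fos (-0.52) and Jun (-0.53) and the early activation marker Cd69 (-0.74) were lower, among 6 of 16 T cell receptor response genes, and Tnfrsf9 was the single one higher. Effector cells were also the deeper class. With cells of at least 2000 UMIs thinned to 2000 and the others left out, 2015 genes could be tested and 252 were called. Of the 756 genes, 498 could be tested there, 494 had the same sign and 196 were still called.

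Cycling CD8 T cells with Gzmb or Prf1 were the other neighbouring class, and here too the gate fixes part of the difference. Of 7965 genes, 1694 were higher in the effector cells (21.3%) and 1475 lower (18.5%). All 28 measured cell cycle genes were lower, with Mki67 and Top2a barred from the members by the gate. Type I interferon-stimulated genes were higher for 23 of 26 measured members (median 0.65 beside 0.06 over all genes), stem-like and naive genes for 11 of 13 (median 0.70) and homing and adhesion receptors for 13 of 16 (median 0.45). Ccl5, a chemokine of effector T cells, was higher by 1.305 ± 0.09 and Gzma by 1.01 ± 0.17, in 12 of 12 and 11 of 12 mice. Slpi, Thbs1, Arg1 and Pf4, genes of myeloid cells (1.12 to 1.74, higher in 8 or 9 of 12 mice), were among the 8 largest positive changes too. With cells thinned to 2000 UMIs, 1190 of 3754 genes were called.

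In control tumours, effector cells from CD40-treated mice held more transcripts of 7 stem-like and naive genes and 6 homing receptor genes, and less of the inhibitory receptor gene Havcr2, than those from isotype-treated mice. edgeR's quasi-likelihood test over mice called 464 of 7164 genes higher (6.48%) and 386 lower (5.39%) at an adjusted p under 0.05. Members at the gate's limit of 2 Gzmb and Prf1 UMIs were 39.2% of control CD40 and 17.9% of control isotype members. The part of this difference in the changes below was not tested. The control isotype mice held 43 to 102 members each and the control CD40 mice 397 and 881. Low CPM values under isotype therefore rest on few counts. Tcf7 stood at 31.9, 12.3, 10.8, 12.4 and 30.8 CPM in the control isotype mice and at 98.3 and 107 CPM in the control CD40 mice. The groups did not overlap (log2 change 2.34 ± 0.43, edgeR adjusted p = 0.00394). Cxcr3, encoding the receptor for interferon-induced chemokines that draws effector T cells into tissue, stood at 21.3, 24.6, 28.7, 6.18 and 30.8 CPM against 94.7 and 121 CPM (2.35 ± 0.44, edgeR adjusted p = 0.00411), again without overlap.

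Of 14 measured stem-like and naive genes, 7 rose (Tcf7, S1pr1, Lef1, Klf2, Ets1, Satb1 and Foxp1) and 1, Ccr7, fell; the list's median log2 change was 1.16 beside -0.04 over all 7164 genes. Ets1, a transcription factor of T cells, rose from 411 to 572 CPM in the control isotype mice to 1088 and 1175 CPM in the control CD40 mice, by 1.18 ± 0.15 (edgeR adjusted p = 0.000643). Homing and adhesion receptors rose for 6 of 17 and fell for none (median 0.46), among them Cxcr3, Itgb7, S1pr4, Cxcr4 and Itgal. Itgal, a subunit of the integrin LFA-1, rose by 0.88 ± 0.17 (edgeR adjusted p = 0.00426). The lymph node exit receptor gene S1pr1 rose by 2.10.

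Of 20 cytolytic granule genes outside the gate 3 rose, none fell and 17 were not called (median 0.00, with 10 positive). They were Fasl, the death ligand, by 1.27 ± 0.23 (edgeR adjusted p = 0.00351), Ctsw by 0.91 and Nkg7 by 0.49. Fasl stood between 34.6 and 74.1 CPM in control isotype mice and at 129 and 112 CPM in control CD40 mice. Gzma had 271, 485, 133, 108 and 51.4 CPM against 808 and 495 CPM, both CD40 mice higher than every isotype mouse, yet its log2 difference of 1.75 ± 0.56 did not pass (edgeR adjusted p = 0.0548).

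The interferon-gamma gene did not differ detectably. Ifng stood at 596, 325, 509, 290 and 356 CPM in control isotype mice and at 450 and 483 CPM in control CD40 mice, inside their range (0.20 ± 0.36, edgeR adjusted p = 0.776). Pdcd1 stood at 247, 154, 165, 266 and 216 CPM against 126 and 111 CPM, without overlap, but its difference of -0.81 ± 0.27 missed the threshold (edgeR adjusted p = 0.0598). It passed with members thinned to 2000 UMIs (edgeR adjusted p = 0.0101), with DESeq2 (0.04), with no low-count filter (0.0345) and without the first or the second B2m-null CD40 pool in the shared fit (0.0193 and 0.0374), 1 mouse of the first (0.0286) or 1 control isotype mouse (0.0474). It missed in the other settings, such as without C1q-carrying members (edgeR adjusted p = 0.107) or without the first or the second control isotype pool (0.121 and 0.176). Without control CD40 mouse 1 or 2, Pdcd1 changed by -0.87 and -0.70.

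Of 14 measured inhibitory receptor and exhaustion genes 11 were not called, 2 fell and 1 rose. Over all 7164 genes 6.48% rose and 5.39% fell. Havcr2 stood at 210, 135, 204, 349 and 291 CPM in control isotype mice and at 106 and 76.1 CPM in control CD40 mice, and fell (-1.39 ± 0.33, edgeR adjusted p = 0.0143). Macrophages also held Havcr2, with a UMI in 18.5% of them (5.61% thinned) against 22.6% of members (16.5% thinned). Without members carrying C1q UMIs, Havcr2 changed by -1.48 (edgeR adjusted p = 0.0137). That filter does not bear on dendritic cell transcripts, whose part in the fall of Havcr2 was not tested. Cd200r1 fell by 2.53 on the log2 scale and Cd38, encoding an ectoenzyme of activated and exhausted T cells, rose by 1.13, so that 2 of 14 fell and 1 rose. Lag3, with a difference of -0.02 ± 0.24 (edgeR adjusted p = 0.983), and Tox, with -0.24 ± 0.30 (edgeR adjusted p = 0.659), did not pass. Among costimulatory receptors Cd28 (0.97) and Cd7 (2.42) rose while Tnfrsf9 (-0.95) and Tnfrsf4 (-1.19), encoding 4-1BB and OX40, fell.

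Chemokine and cytokine genes split 5 up and 3 down of 17. Ccl5 stood between 2411 and 5367 CPM in control isotype mice and at 7869 and 15036 CPM in control CD40 mice (1.76 ± 0.37, edgeR adjusted p = 0.00803). Il10, encoding a mostly suppressive cytokine, was at 0, 0, 28.7, 3.09 and 6.85 CPM against 66.4 and 49.5 CPM (2.90 ± 0.65, edgeR adjusted p = 0.0101). Ifngas1, a long non-coding RNA next to Ifng, had 125 counts in the control CD40 mice and 1 in the control isotype mice, a ratio per UMI of 45.3 (95% interval 7.98 to 1803, counting error only). Xcl1 (-1.99), Ccl1 (-3.05) and Ccl9 (-1.49) fell.

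The adaptor gene Hcst, which encodes the DAP10 partner of the receptor NKG2D, had one of the clearest separations. It stood at 176, 227, 215, 300 and 295 CPM in control isotype mice and at 1065 and 1271 CPM in control CD40 mice, by 2.31 ± 0.23 (edgeR adjusted p = 9.9e-05). Klrd1, the other called gene of 16 killer lectin-like and NK receptor genes, fell by 0.85. Of 18 effector and residency transcription factors 4 rose, among them Tbx21 (0.80), encoding T-bet, Runx3 (0.90) and Hopx (1.23), and 4 fell (Irf8, Rbpj, Ahr and Zeb2). Pou6f1 was the remaining riser, with 106 counts against 1 (ratio per UMI 38.4, 95% interval 6.75 to 1531).

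Metabolic and interferon lists moved less evenly. No measured cholesterol synthesis gene had a positive change, and 6 of 14 fell (median -1.005), such as Fdps (-2.12), Idi1 (-1.73) and Cyp51 (-1.68). Interferon-gamma response genes rose for 5 of 25 (among them Irf1, Igtp, Gbp4 and Gbp8) and fell for 1 (Psmb8), whereas type I interferon-stimulated genes rose for none of 25 and fell for 3 (Isg15, Isg20 and Slfn5; median -0.33). In the Ifitm family, restriction factors induced by interferon, Ifitm2 (-1.59) and Ifitm3 (-2.17) fell of 3 measured. Residual cell cycle genes fell for 4 of 22, glycolytic genes for 2 of 22 (Ldha and Pgam1), and respiratory chain genes rose for 7 of 26 and fell for 1. Calls of S100, annexin and cytoskeletal genes numbered 4 up and 2 down of 19, of heat-shock genes 1 up and 3 down of 12, and of NF-kB and survival genes 2 up and 2 down of 16.

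**Figure D3:**
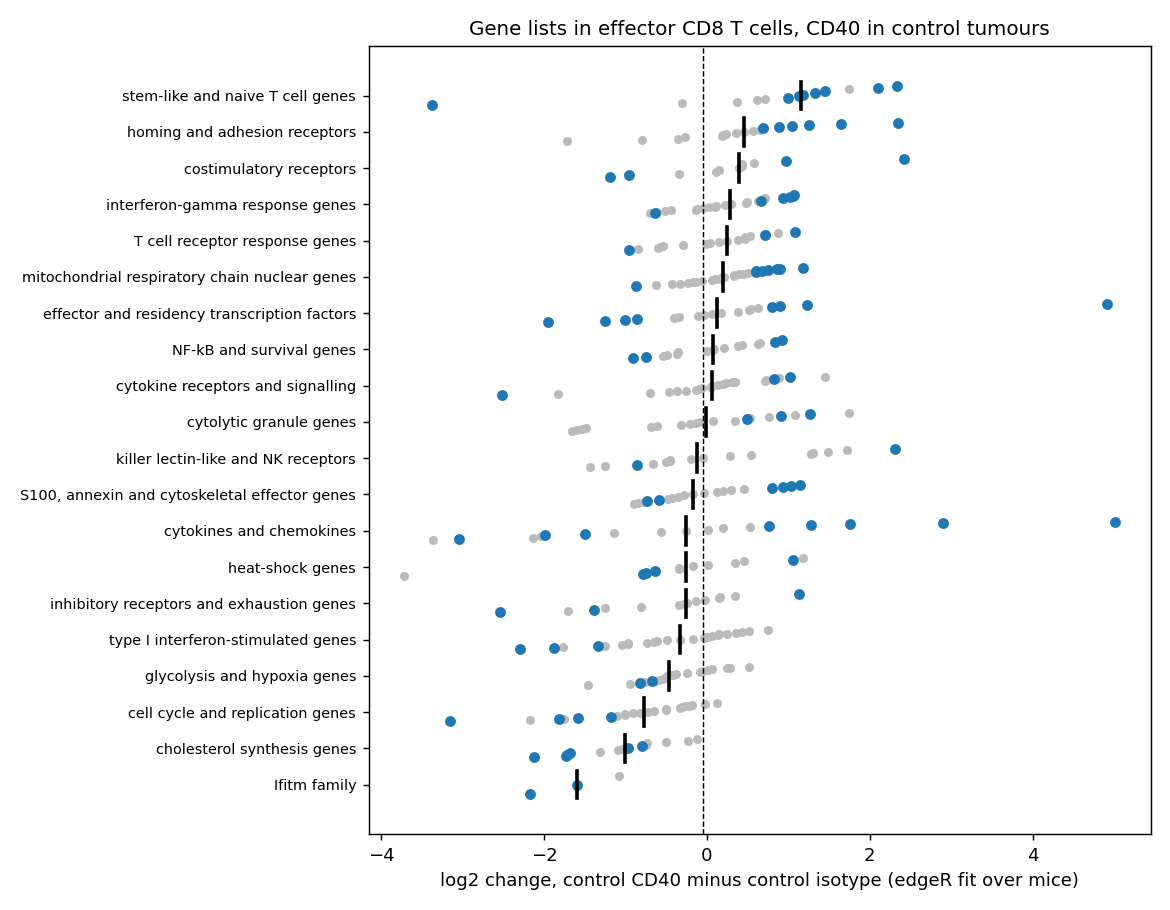
Log2 change of each measured gene in effector cells, control CD40 minus control isotype, by gene list (blue, adjusted p under 0.05; grey, not called; black bar, list median; dashed line, median over all 7164 genes). Stem-like and naive genes have the highest median, at 1.16, and the Ifitm family the lowest, at -1.59.

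Genes of other cell types were among the largest changes. Immunoglobulin genes led the increases: Jchain had 472 counts against 1, Igkc rose by 5.14 and Ighg2b had 516 counts against 0, at least 62.3-fold higher (floor of 3 counts over the group). Of the 516 Ighg2b counts 514 came from control CD40 mouse 2 and 2 from mouse 1, so without mouse 2 both groups are under the floor. Jchain was at 118 and 120 CPM in the 2 mice. The summed level of 5 B cell markers was 61.5 to 88.0 CPM in the control isotype lanes but 939 and 70.1 CPM in the 2 control CD40 lanes, which hold cells of the same pool. The decreases were led by Ccl22, Ccr7, Cd83, Ifi205, Nrn1, Cst3, Tbc1d4 and Cbfa2t3 (-4.19 to -2.59), several of them dendritic cell genes. The 6 dendritic markers, of which Ccr7 is one, summed to 242 and 331 CPM in the control isotype lanes, with all 6 detected. They summed to 20.3 and 23.0 CPM in the control CD40 lanes, with Siglech at 0 in both and Flt3 at 0 in the second. The 12 monocyte and macrophage markers summed to 2024 and 1790 CPM and to 1059 and 1192 CPM in the lanes. By mouse they overlapped, at 1091, 1860, 2585, 1183 and 1048 CPM under isotype and 780 and 1187 CPM under CD40. Without members carrying C1q UMIs, Ifitm3 was no longer called (-2.59, edgeR adjusted p = 0.0868), and Ifitm2 was (-1.91, edgeR adjusted p = 0.0431). The part of dendritic and B cell transcripts in the changes of Ccr7, Cd83, Irf8, Havcr2 and the immunoglobulin genes was not tested, nor was that of fibroblast transcripts.

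The count of called genes rests on few mice. It was 45 without control CD40 mouse 2, 259 without control CD40 mouse 1, 119 without the first control isotype pool and 1372 without the first B2m-null CD40 pool, whose spread enters the shared fit. With the pool as the unit, where control CD40 is a single sample, 39 genes were called, 38 of them among the 850, and all 850 had the same direction; 1 stem-like gene (Ccr7) and 1 homing receptor then passed. Of the 80 called genes chosen for naming, 77 could be tested without control CD40 mouse 2 and 8 were still called, while 79 could be tested without control CD40 mouse 1, with 47 called, and without the first control isotype pool, with 18 called. Without control CD40 mouse 2, Tcf7 changed by 2.29 (edgeR adjusted p = 0.0672), Cxcr3 by 2.16 (0.0789) and Havcr2 by -1.13 (0.263), all missing the threshold, whereas Hcst kept its call (2.18, 0.00368).

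**Figure D4:**
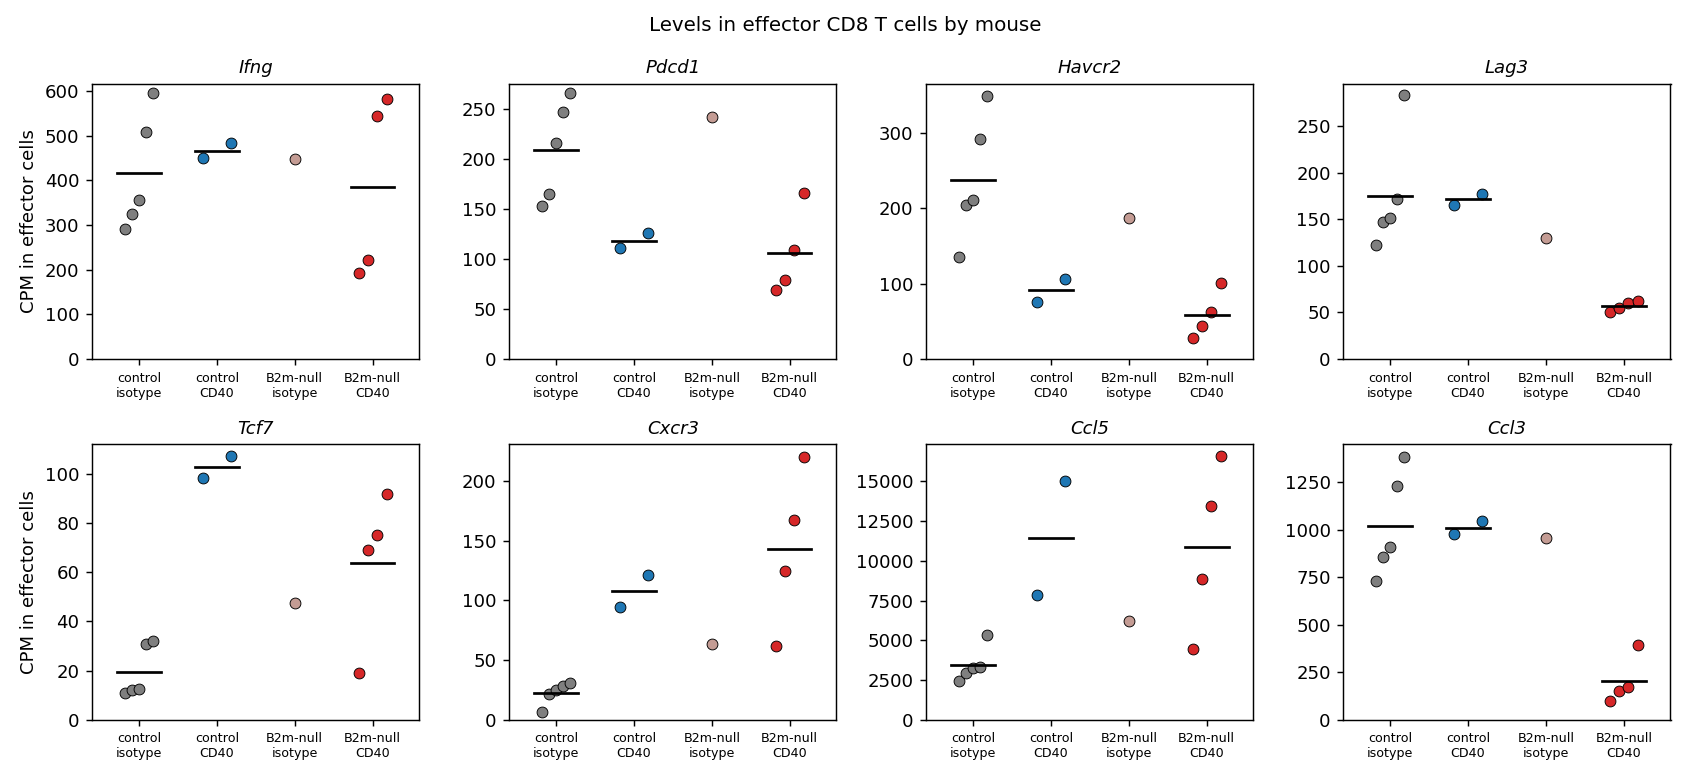
Levels in CPM of 8 genes in effector cells, 1 point per mouse with at least 10 members and a bar at the mean where a group has more than 1 mouse. Tcf7 and Cxcr3 are higher and Havcr2 is lower in both control CD40 mice than in the 5 control isotype mice, and Lag3 and Ccl3 are lowest in the 4 B2m-null CD40 mice.

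Between the CD40-treated groups, effector cells of B2m-null tumours had less of the chemokine genes Ccl3 and Ccl4 and of the inhibitory receptor gene Lag3. Over mice, edgeR called 34 of 7164 genes higher (0.475%) and 27 lower (0.377%) in B2m-null CD40 than in control CD40 tumours. Both control CD40 mice came from 1 pool, so the tumour genotype and that pool cannot be told apart here. The fit over mice takes mice of a pool as independent. Lag3 stood at 177 and 166 CPM in control CD40 mice and at 55.3, 61.9, 60.4 and 50.1 CPM in B2m-null CD40 mice, with no overlap (-1.54 ± 0.25, edgeR adjusted p = 0.011). Ccl3 stood at 1046 and 974 CPM against 96.7, 171, 149 and 394 CPM (-2.16 ± 0.35, edgeR adjusted p = 0.011).

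Ccl4 stood at 3489 and 2541 CPM in control CD40 mice and at 622, 604, 1042 and 1016 CPM in B2m-null CD40 mice (-1.81 ± 0.32, edgeR adjusted p = 0.0147). All 4 B2m-null mice were below both control mice for each of these 3 genes, but the 8 largest decreases, to which they belong, were chosen without overlap. Rgs16, a regulator of G protein signalling (-2.01), and Spry2, an inhibitor of receptor tyrosine kinase signalling (-2.31), were also lower. The heat-shock gene Hspa1b was at 143 and 80.7 CPM in control CD40 mice and at 0 to 32.9 CPM in B2m-null CD40 mice. Hnrnph1 (-1.09) and Sod1 (-1.08) completed the 8 largest decreases.

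The 8 largest increases were smaller, from 1.20 for Ubb to 1.53 for Cd86, with Snapc5, Ndufv2, Pold4, Ech1, Psmc2 and Polr2j between. Within the lists, Psmb8, an immunoproteasome subunit (0.86), Aldoa (0.88) and Lgals1 (0.71) were higher, and no cytolytic, stem-like, homing or transcription factor gene was called. Type I interferon-stimulated genes had positive changes for 25 of 25 measured members, with a median of 0.48 beside -0.01 over all genes, but none was called. Ifng at 221, 544, 192 and 581 CPM overlapped the control CD40 mice (-0.20 ± 0.37, edgeR adjusted p = 0.861), as did Pdcd1 at 69.1, 167, 109 and 79.5 CPM (-0.06 ± 0.27, edgeR adjusted p = 0.969).

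Transcripts of other cell types were unevenly spread in this comparison. The 5 neutrophil markers summed to 11.3 and 65.2 CPM in effector cells of the control CD40 lanes and to 213 and 354 CPM in those of the B2m-null CD40 lanes. By mouse they overlapped, at 84.1 and 11.7 CPM against 27.6, 40.5, 539 and 47.9 CPM, with 1 B2m-null CD40 mouse above the others. The 4 fibroblast markers stood at 552 and 390 CPM in the control CD40 mice and at 7614, 1270, 231 and 4.35 CPM in the B2m-null CD40 mice. The part of both in the calls was not tested. The 12 monocyte and macrophage markers, all detected in every lane, summed to 1059 and 1192 CPM in effector cells of the control CD40 lanes and to 1429 and 3798 CPM in those of the B2m-null CD40 lanes. By mouse they overlapped, at 780 and 1187 CPM against 1603, 3376, 948 and 1622 CPM. Macrophages themselves held Ccl3, with a UMI in 54.2% of them against 29.9% of members. Among members free of C1q UMIs, 38 genes were called. Lag3 was still called (-1.41, edgeR adjusted p = 0.0221), and Ccl3 (-2.15, edgeR adjusted p = 0.0557) and Ccl4 (-1.64, edgeR adjusted p = 0.0816) were not. Without the second B2m-null CD40 pool 66 genes were called, 19 of them among the 61 of the full fit. Lag3 missed the threshold there (-1.53, edgeR adjusted p = 0.0616). The call count of 61 was 1 without control CD40 mouse 1, 2 without control CD40 mouse 2, 22 without B2m-null CD40 mouse 2 of the second pool, 24 and 37 without the first and the second control isotype pool, 32, 33, 40 and 35 without 4 of the 5 control isotype mice in turn, 38 without the second control CD40 lane, 99 without B2m-null CD40 mouse 2 of the first pool and 343 without the first B2m-null CD40 pool. With the pool as the unit 7 genes were called, 1 of them, Ccl3, among the 61. Of the 19 called genes chosen for naming, 0 remained called without control CD40 mouse 1 (539 of all genes at an unadjusted p under 0.05 in edgeR) and 1 without control CD40 mouse 2.

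In B2m-null tumours, effector cells held less Ccl3 and less of several genes known from dendritic cells or macrophages after CD40 treatment. Over pools, edgeR called 13 of 8839 genes (0.147%), 1 higher and 12 lower. Ccl3 had 645 and 825 CPM under isotype and 199 and 223 CPM under CD40, 2 pools each and without overlap (-1.70 ± 0.22, edgeR adjusted p = 0.0444). Flt3, Wdfy4, Cbfa2t3, Ccr7, Cd83, Batf3, Mrc1 and Tmem176b were the 8 largest decreases. Flt3, the receptor of a dendritic cell growth factor, had 2 counts under CD40 and 25 under isotype, a ratio per UMI of 89.4 (95% interval 22.3 to 779).

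The 6 dendritic markers summed to 434 and 327 CPM in B2m-null isotype lanes and to 6.41 and 22.9 CPM in B2m-null CD40 lanes, with Xcr1 and Siglech at 0 in both CD40 lanes. Flt3 and Ccr7 are among the 6, and Ccr7 alone made up 172 and 192 CPM under isotype, so the sum repeats those calls in part. The neutrophil gene S100a8 reached 6.39 CPM (1 count) and 16.8 CPM (7 counts) under isotype and 103 and 128 CPM under CD40 (3.18 ± 0.40, edgeR adjusted p = 0.0412). The 5 neutrophil markers, S100a8 included, summed to 12.8 and 60.1 CPM and to 213 and 354 CPM in the same lanes. Among members given to a mouse they stood at 79.5 CPM in the 1 B2m-null isotype mouse with enough members, above 3 of the 4 B2m-null CD40 mice (27.6, 40.5 and 47.9 CPM) and below the other (539 CPM). The 12 monocyte and macrophage markers summed to 2472 and 1551 CPM under isotype and to 3798 and 1429 CPM under CD40, which overlap. The 4 fibroblast markers did not, at 19.2 and 4.81 CPM under isotype, with Col1a1, Col1a2 and Dcn at 0 in both lanes, and 1476 and 144 CPM under CD40. The part of these transcripts was not tested.

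None of Tcf7, Havcr2, Ifng and Pdcd1 was called over pools. Tcf7 was at 47.7 CPM in the 1 B2m-null isotype mouse with enough members and at 69.1, 19.2, 91.9 and 75.1 CPM in the B2m-null CD40 mice (over pools 0.26 ± 0.57, edgeR adjusted p = 0.907). Havcr2 was at 188 CPM against 27.6, 100, 43.7 and 62.0 CPM, all 4 lower, but its pool difference of -1.30 ± 0.37 did not pass (edgeR adjusted p = 0.217). Ifng differed over pools by 0.28 ± 0.33 (edgeR adjusted p = 0.771) and Pdcd1 by -0.51 ± 0.31 (edgeR adjusted p = 0.532). Interferon-gamma response genes had a median of 0.83 with 23 of 25 positive, and type I interferon-stimulated genes 0.71 with 25 of 28 positive, beside 0.02 over all genes; none was called. The count of 13 was 1 without either control isotype pool in turn or without the second B2m-null isotype pool, 4 without the first, 174 without the first B2m-null CD40 pool and 65 without the second. In the fits without 1 control isotype or 1 B2m-null isotype pool, 0 of the 13 genes were still called, Ccl3, S100a8 and Flt3 included (870, 883, 696 and 1142 of all genes at an unadjusted p under 0.05 in edgeR). With members thinned to 2000 UMIs 13 genes were called, 5 of them shared.

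Under isotype, the 2 genes called between the tumour genotypes were granzymes, and their calls did not hold in every setting. Of 8839 genes edgeR called 2 over pools (0.0226%), Gzme and Gzmd, both lower in B2m-null tumours. Gzmd and Gzme encode granzymes of a cluster found in rodents next to Gzmb, with closely related sequences, so that counting may have moved reads between them. Gzme stood at 115 and 147 CPM in the 2 control isotype pools, with 235 counts, and at 0 in both B2m-null isotype pools, at least 24.5-fold lower (floor of 3 counts over the group; edgeR adjusted p = 0.0117). Gzmd stood at 115 and 93.1 CPM, with 193 counts, against 0, at least 20.1-fold lower (edgeR adjusted p = 0.0127). With members of at least 2000 UMIs thinned to 2000 and the others left out, neither was called (edgeR adjusted p = 0.224 for Gzme and 0.366 for Gzmd) and 3 other genes were. Both Gzme and Gzmd were lower there too, and the part of depth was not tested.

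Both genes were also at 0 in 1 of the 5 control isotype mice, and with the 1 B2m-null isotype mouse of enough members in a fit over mice no gene was called (459 at an unadjusted p under 0.05). Gzmf, with 465.9 and 198 CPM against 6.39 and 0, and Gzmc, with 744 and 1508 CPM against 51.1 and 106, did not pass (edgeR adjusted p = 0.324 for both). Under CD40 the same 4 genes stood lower in B2m-null than in control tumours without passing the test. Gzmc stood at 385 and 307 CPM in control CD40 mice and at 180, 96.0, 24.6 and 15.2 CPM in B2m-null CD40 mice (-2.82 ± 0.71, edgeR adjusted p = 0.0705), and Gzmd at 44.3 and 93.7 CPM against 0, 10.7, 0 and 14.1 CPM (-3.55 ± 0.83, edgeR adjusted p = 0.0557).

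**Figure D5:**
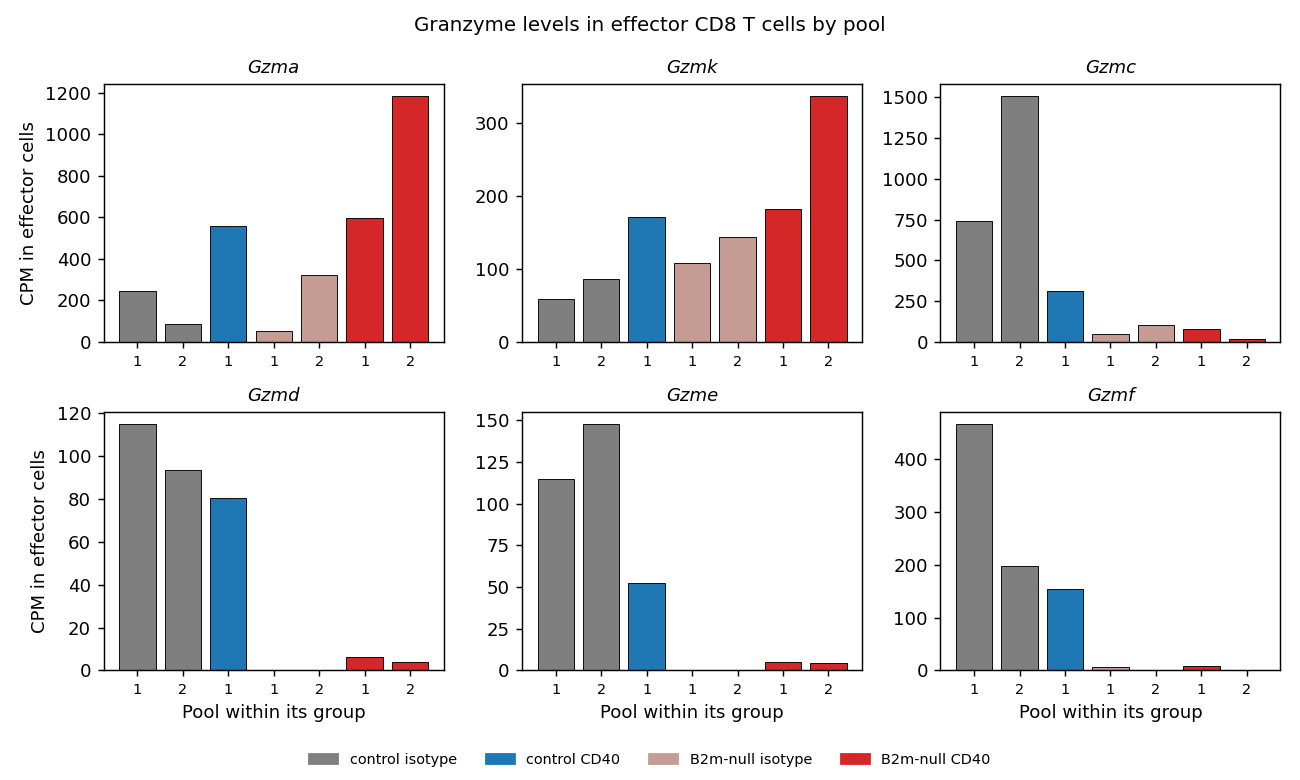
Levels in CPM of 6 granzyme genes in effector cells, 1 bar per pool, coloured by group, with the pool's number within its group below. Gzmc, Gzmd, Gzme and Gzmf are high in the 2 control isotype pools and low in the 4 B2m-null pools, while Gzma and Gzmk are highest in the second B2m-null CD40 pool.

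Gzma and Gzmk, granzymes of a separate cluster, did not follow that order. Gzma was highest in the second B2m-null CD40 pool at 1185 CPM and lowest in the first B2m-null isotype pool at 51.1 CPM, and neither gene was called in a comparison of groups. Among the gate genes, given without a test, Gzmb stood between 1317 and 1867 CPM in the 7 pools, and Prf1 at 616 and 746 CPM in control isotype pools, 388 CPM in control CD40, 243 and 279 CPM in B2m-null isotype and 280 and 192 CPM in B2m-null CD40 pools. Ifng (-0.41 ± 0.33, edgeR adjusted p = 0.957) and Pdcd1 (-0.28 ± 0.31, edgeR adjusted p = 0.961) overlapped between the genotypes under isotype. Without the first control isotype pool, or without the second B2m-null isotype pool, edgeR called no gene (189 and 602 at an unadjusted p under 0.05). Without the second control isotype pool it called 1, which was neither Gzme nor Gzmd (edgeR adjusted p = 0.0502 for both). The count was 6 without the first B2m-null isotype pool and 5 without either B2m-null CD40 pool in turn.

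A difference of the CD40 effect between the tumour genotypes was called for 1 of 8839 genes over pools (0.0113%). In this fit control CD40 is a single pool, assumed to vary like the pools of the other groups, so that the result cannot be told apart from that pool. S100a8 had a difference of log2 changes of 5.01 ± 0.54 (edgeR adjusted p = 0.0314), standing at 48.3 and 45.3 CPM in control isotype pools, 12.8 CPM in the control CD40 pool, 6.39 and 16.8 CPM in B2m-null isotype and 103 and 128 CPM in B2m-null CD40 pools. This neutrophil gene was called in none of these fits: that without members carrying C1q UMIs, that with members thinned to 2000 UMIs and that over mice. DESeq2 gave it no adjusted p. In that fit over mice it was at 0 in 3 of the 5 control isotype mice. Tcf7 had an interaction of -1.65 ± 0.82 (edgeR adjusted p = 0.627) and Lag3 of -0.53 ± 0.42 (edgeR adjusted p = 0.741). Type I interferon-stimulated genes had positive interactions for 25 of 28 measured members, with a median of 1.34 beside 0.01 over all genes, and none was called. edgeR called no gene without the first control isotype pool, the first control CD40 lane or the second B2m-null isotype pool (365, 724 and 863 at an unadjusted p under 0.05). It called 1 without the second control isotype pool and 4 without the first B2m-null isotype pool, none of them S100a8. It called 2 without the second control CD40 lane, and 7 and 47 without the first and the second B2m-null CD40 pool, S100a8 included. The changes of Tcf7, Cxcr3, Havcr2 and Lag3 described above for 1 genotype or treatment are therefore not shown to differ from those in the other.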

How the data were processed

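The deposited matrices hold raw UMI counts per gene and barcode, with hashtag counts in the same files, per the file headers; the submitters' processing notes name Cell Ranger 3.0.0, bcl2fastq 2.20.0.422 and the mm10 build. The members, gene lists and comparisons were chosen with earlier results of these data known. Barcodes were filtered and gated as described, and hashtags were assigned to mice from normalised counts. Member counts were summed per mouse (at least 10 members) or per pool and tested with edgeR 4.0.16 (R 4.3.3; TMM scaling, quasi-likelihood test, Benjamini-Hochberg adjustment over all genes passing the low-count filter), with all groups sharing 1 estimate of the spread; class comparisons kept the mouse as a block. CPM values (counts per 1000000 UMIs) were computed from these sums. The planned fit over mice was replaced by pools where B2m-null isotype entered, since 1 mouse had enough members. Named were Ifng, Pdcd1, the 8 largest called changes each way with a mean of 50 CPM in 1 group (between groups of mice or pools, also without overlap; not asked between classes), and up to 4 called genes per list by smallest p; others were chosen after their values were seen. Alternatives used DESeq2 1.42.0 and other units, filters and depths. The fits were tested on simulated counts. False calls there took a larger share than the threshold allows in every comparison simulated other than CD40 in control tumours. Simulated samples were drawn independently, so false calls from effects shared by mice of 1 pool could not appear, in that comparison too. The difference of CD40 effects was not simulated. Doublets were not removed other than by the gate and, in fits over mice, by hashtag. Some genes counted in the lists are not reported by name here.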

Additional observations from a re-analysis of the deposited data

Results flagged for a closer look

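Values that stand apart from the rest of their group are given here; a single value was looked for in 90 groups of 4 or 5 mice over 42 genes and the shares, 13 stood apart, and chance gives about 1 in 20 groups. Among control isotype mice, the lowest share of effector cells among non-cycling CD8 T cells was 35.2%. In the same group single mice were highest for Cd83 (168 CPM), Il10 (28.7 CPM), Jchain (3.59 CPM, 1 count) and Nrn1 (222 CPM), and 1 mouse was lowest for Gzme (0 CPM). Among B2m-null CD40 mice, single mice were highest for Ifi205 (55.3 CPM), Ighg2b (0.983 CPM), Igkc (1436 CPM), Il10 (53.4 CPM), Jchain (181 CPM), Mrc1 (41.5 CPM) and S100a8 (193 CPM). Those values of Ifi205, Ighg2b and Mrc1 rest on few counts. The CD40 effect on S100a8 differed between tumour genotypes by 5.01 on the log2 scale (edgeR, tested over pools).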

How the results depend on the processing

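Counts of called genes depended on the setting. CD40 in control tumours gave 39 with the pool as the unit and 434 with members thinned to 2000 UMIs (45 to 1372 with a pool, lane or mouse left out). Genotype under CD40 gave 7 by pool, 213 with DESeq2, 230 without the low-count filter, 95 thinned and 38 without C1q-carrying members (1 to 343 left out). CD40 in B2m-null tumours gave 2 by mouse, 90 with DESeq2, 395 unfiltered and 42 without C1q-carrying members (1 to 174). Genotype under isotype gave 0 by mouse, 7 with DESeq2 and 74 unfiltered (0 to 6). The difference of CD40 effects gave 8 by mouse, 36 with DESeq2, 130 unfiltered and 4 without C1q-carrying members (0 to 47). Thinning gave 252 against negative cells and 1190 against cycling cells, with fewer genes tested (2015 and 3754). With the replicate block, CD40 in B2m-null tumours gave 206 and genotype under isotype 10; the numbers did not pair the pools (correlations 0.0186, 0.297 and 0.127), and the block was a check only. The fits by mouse for these comparisons were chosen after seeing the data. Of the genes chosen by the naming rule, no called one changed direction in the settings run; other called genes were not all followed one by one.

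The genotype difference under CD40 turned sign for the share of filtered cells (-3.58 to 2.28 with a mouse or pool left out) and of non-cycling CD8 T cells (-2.08 thinned; -3.94 to 10.0), as did CD40 in B2m-null tumours for the latter (-1.45 to 13.9). No share passed the adjusted threshold in any setting. The uncalled Ifng and Pdcd1 changed sign: Ifng for CD40 in control tumours (-0.00467 to 0.58), genotype under CD40 (0.0796 without C1q-carrying members; -0.52 to 0.0562), CD40 in B2m-null tumours (-0.13 by mouse) and genotype under isotype (0.13 by mouse; -0.87 to 0.0824); Pdcd1 for genotype under CD40 (0.0809 by pool, 0.0396 thinned; -0.30 to 0.22), CD40 in B2m-null tumours (-0.86 to 0.19) and genotype under isotype (0.21 by mouse; -0.97 to 0.0529). The causes were not tested. The minimum of 20 members and leaving out single mice were not run for comparisons over pools.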
